A study of Mus musculus with 7 samples.

Results

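Immediate early genes were followed in RNA-seq of the cerebellum of young mice. The 10 genes were chosen by name, as genes that respond to neuronal activity and to dissection: Fos, Fosb, Jun, Junb, Egr1, Arc, Npas4, Nr4a1, Ier2 and Btg2. All 10 were among the 55450 genes of the files, and 9 of the 10 passed the filter on low counts, Fosb being the exception. Polyadenylated RNA was sequenced from cerebella of C57BL/6 pups at postnatal day 15, 4 libraries from L3mbtl3 KO/+ mice (KO/+, with a single knockout allele of the chromatin reader L3mbtl3) and 3 from wild-type mice (WT). The labels give neither litters nor the part of the gene that the knockout allele lacks, and whether each WT library is a separate animal is not stated, so p-values measure the spread between these libraries. The libraries held 29248360 to 43761792 expected counts assigned to genes.

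Immediate early genes are transcribed within minutes of a stimulus without new protein synthesis, through transcription factors such as CREB and SRF that are already bound or present in the cell. Many of them encode transcription factors that in turn switch on delayed genes. In brain they are widely used as a record of recent neuronal firing, and they also respond to handling, anaesthesia and the dissection of the tissue.

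L3mbtl3 itself, at chr10:26274468-26375971 on the minus strand of GRCm38, had 19.7, 17.4, 22.3 and 23.0 CPM (counts scaled to library size) in KO/+ replicates 1 to 4, against 22.6, 26.8 and 23.2 CPM in WT replicates 1 to 3. The genotypes overlapped, and the log2 fold change was -0.23 (SE 0.12, adjusted p = 0.957, edgeR). Markers of the cerebellum were high in every library: the summed level of 6 granule neuron markers was 2020 to 2500 TPM (a level scaled by transcript length and library size) in KO/+ and 1760 to 2220 TPM in WT, and that of 5 Purkinje cell markers 4450 to 6150 TPM in KO/+ and 4350 to 5600 TPM in WT. The libraries differed in other markers. Those of granule neuron progenitors and cycling cells (6 genes) summed to 116, 103, 213 and 230 TPM in KO/+ replicates 1 to 4, against 243, 256 and 111 TPM in WT replicates 1 to 3. Those of choroid plexus (5 genes) summed to 2300, 1660, 1250 and 13.6 TPM in KO/+, against 10.3, 1800 and 34.4 TPM in WT. Those of red blood cells (5 genes) summed to 5060, 6970, 4910 and 2730 TPM in KO/+, against 3050, 2780 and 3050 TPM in WT, with a median log2 fold change of 0.86, an unadjusted p under 0.05 for 4 of the 5 and 0 called. The part of these cells in the levels of the members was not tested. In bulk tissue, a change in the number of cells of a type and a change in RNA per cell cannot be told apart.

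No member passed the test for a difference between the genotypes. With edgeR's quasi-likelihood test, 0 of 9 tested members and 0 of 16813 genes (0.0%) had an adjusted p under 0.05; at an unadjusted p under 0.05 the counts were 0 of 9 members and 530 of all genes (3.15%). The unadjusted count of members was 1 without WT replicate 1 or 2 (Arc in both). Log2 fold changes of KO/+ over WT ran from -0.50 for Arc to 0.42 for Fos. Of the 9 members, 5 were above 0 and 4 below, with a median of 0.12, while 48.8% of all genes tested were above 0 and their median was -0.0047. What the members showed was variation between single libraries, described below by the role of each gene.

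The sequence around the start sites is shown for 5 members whose promoters differ in how often they hold TGACG, the core of the cAMP response element bound by CREB. The sequences are from RefSeq (GRCm38.p6), from 250 bases before to 50 bases after the start, 5′ to 3′ on the strand of the gene, and capitals mark TGACG or its reverse complement CGTCA. They lie at chr12:85473640-85473939 (Fos, plus strand), chr15:101266596-101266895 (Nr4a1, plus), chr19:4989922-4990221 (Npas4, minus), chr1:134079106-134079405 (Btg2, minus) and chr4:95052173-95052472 (Jun, minus).
Fos: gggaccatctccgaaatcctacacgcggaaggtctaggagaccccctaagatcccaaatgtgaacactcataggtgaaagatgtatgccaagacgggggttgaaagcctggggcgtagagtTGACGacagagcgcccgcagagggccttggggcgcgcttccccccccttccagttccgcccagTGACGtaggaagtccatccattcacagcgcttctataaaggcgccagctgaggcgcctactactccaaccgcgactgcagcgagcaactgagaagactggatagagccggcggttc
Nr4a1: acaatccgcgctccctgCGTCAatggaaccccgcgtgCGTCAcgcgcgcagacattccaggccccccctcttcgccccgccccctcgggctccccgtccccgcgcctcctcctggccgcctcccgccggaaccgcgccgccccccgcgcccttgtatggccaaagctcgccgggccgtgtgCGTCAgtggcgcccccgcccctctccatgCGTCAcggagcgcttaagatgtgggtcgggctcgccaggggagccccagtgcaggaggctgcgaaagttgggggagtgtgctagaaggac
Npas4: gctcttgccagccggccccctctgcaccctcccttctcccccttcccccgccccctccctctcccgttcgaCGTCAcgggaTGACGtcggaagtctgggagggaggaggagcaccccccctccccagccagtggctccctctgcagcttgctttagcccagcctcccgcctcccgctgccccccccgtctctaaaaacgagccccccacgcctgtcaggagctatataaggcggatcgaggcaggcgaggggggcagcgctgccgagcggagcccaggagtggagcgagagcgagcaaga
Btg2: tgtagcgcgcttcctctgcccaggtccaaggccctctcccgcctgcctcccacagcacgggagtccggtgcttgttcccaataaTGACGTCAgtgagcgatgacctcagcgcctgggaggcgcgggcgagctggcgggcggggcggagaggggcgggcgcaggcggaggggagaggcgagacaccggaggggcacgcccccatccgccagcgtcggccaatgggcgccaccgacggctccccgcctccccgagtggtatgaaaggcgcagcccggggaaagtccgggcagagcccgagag
Jun: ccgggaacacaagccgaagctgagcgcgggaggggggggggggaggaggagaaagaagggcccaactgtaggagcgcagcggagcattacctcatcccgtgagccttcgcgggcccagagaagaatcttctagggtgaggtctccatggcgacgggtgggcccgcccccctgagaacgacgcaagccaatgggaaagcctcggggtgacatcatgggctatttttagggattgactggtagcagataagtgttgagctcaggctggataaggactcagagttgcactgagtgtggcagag
The RefSeq table held 7 of the 10 members, without Egr1, Arc and Ier2. TGACG, read on both strands, was present in 6 of the 7 windows, all but that of Jun, and in 20.8% of 32851 promoter windows of the same length. Nr4a1 had 4 copies, at positions -233, -213, -69 and -40 from the start site, Fos had 2 at -129 and -66, and Npas4 had 2 at -179 and -169. Btg2 was the only member with the full palindrome TGACGTCA, at -166, in which copies on the opposite strands overlap; 1.79% of all windows had it. Fosb and Junb, whose windows are not printed, had 1 copy each at -60 and -106. The EGR motif GCGNGGGCG was found in Btg2, Fosb and Nr4a1 and in 5.55% of all windows, TATAAA in Fos and Junb and in 13.6%, and the AP-1 motif TGANTCA in 0 of the 7 and in 7.81%. The CArG box, the motif of SRF, was found in 0 of the 7 windows and in 1.63% of all. The windows reach no farther than 250 bases before the start and none covers Egr1, so motifs beyond them were not searched for. The start used for Npas4 is that of the transcript Npas4-202 in GENCODE, inside the longer Npas4-201. Those used for Btg2 and Junb lie 35 and 30 bases from the nearest GENCODE starts, of Btg2-201 and Junb-201. Positions in these 2 windows therefore depend on the start chosen, among them the TATAAA of Junb, which lies at position 1.

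In level per length, Jun stood highest with a mean of 39.1 TPM over the 7 libraries (range 37.2 to 40.8). Ier2 followed with 26.2 TPM (20.5 to 30.6) and Btg2 with 12.5 TPM (9.31 to 14.7), and the ranges of these 3 genes did not overlap with each other. The highest libraries of Egr1 (11.5 TPM) and Fos (11.4 TPM) reached into the range of Btg2. Junb (7.53 TPM), Egr1 (6.80 TPM), Nr4a1 (6.79 TPM), Fos (6.74 TPM) and Arc (4.16 TPM) formed a middle group whose neighbouring ranges overlapped. Npas4 (0.33 TPM) and Fosb (0.113 TPM) were below 1 TPM in every library, with overlapping ranges. Most members varied more between libraries than the typical gene. The biological coefficient of variation fitted by edgeR was above the median of all genes tested (15.2%) for 7 of 9 members, with a median of 20.4%, and was 8.27% for Jun and 27.3% for Npas4 at the extremes.

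**Figure D1:**
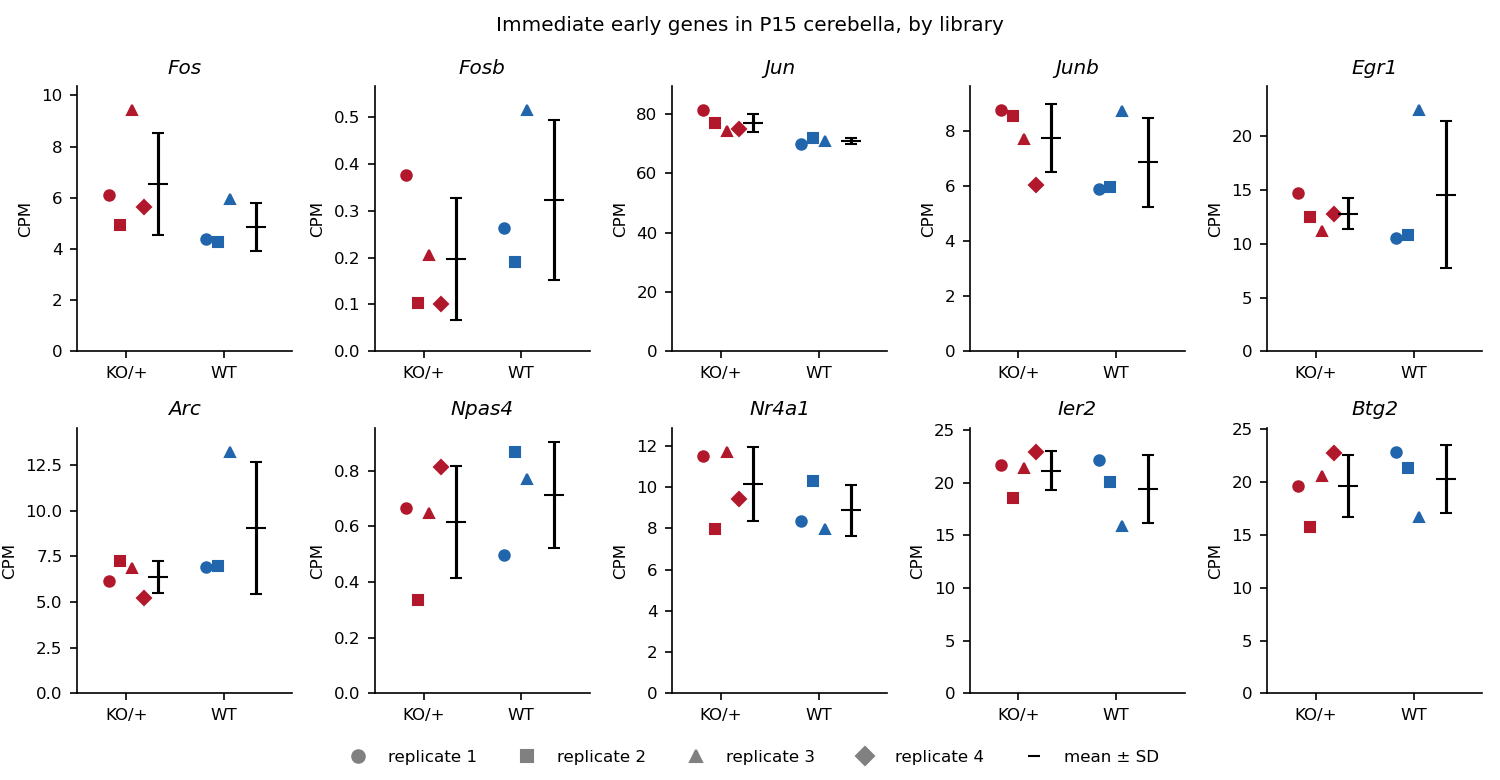
CPM (vertical axes, each starting at 0) of the 10 immediate early genes in 4 KO/+ libraries (red, left) and 3 WT libraries (blue, right) of each panel; symbols give the replicate number and black bars the mean ± SD. WT replicate 3 stands above the other libraries for Egr1 and Arc, KO/+ replicate 3 for Fos, and only for Jun do the genotypes not overlap.

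The Fos and Jun families encode the subunits of the AP-1 transcription factor. Fos, at chr12:85473890-85477273, had 6.11, 4.94, 9.42 and 5.65 CPM in KO/+ replicates 1 to 4, against 4.38, 4.28 and 5.94 CPM in WT replicates 1 to 3. KO/+ replicate 3 was the highest library and the genotypes overlapped. The log2 fold change of Fos was 0.42 (SE 0.24, 95% interval -0.14 to 0.98, adjusted p = 0.957). Without KO/+ replicate 3 the estimate was 0.18, and without WT replicate 3 it was 0.59. Fosb, at chr7:19302696-19310051, whose short splice form builds up with chronic activity, was at the edge of detection. It had 13, 4, 7 and 3 counts in KO/+ and 10, 7 and 22 counts in WT libraries, which is 0.376, 0.103, 0.206 and 0.101 CPM in KO/+ and 0.263, 0.190 and 0.514 CPM in WT. At its mean count, counting error alone gives a coefficient of variation of 32.6%, and Fosb was not tested.

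Jun, at chr4:95049034-95052222, which encodes the main partner of FOS in AP-1, was the only member whose genotypes did not overlap in CPM. It had 81.2, 77.0, 74.3 and 74.8 CPM in KO/+, against 69.8, 71.9 and 70.8 CPM in WT libraries. Every KO/+ library was above every WT library, by a small margin. Of all genes tested, 3.96% did not overlap in either direction, 2.16% with KO/+ above and 1.8% with KO/+ below, so that 1 of 10 members is not a result about them. The log2 fold change of Jun was 0.12 (SE 0.064, 95% interval -0.03 to 0.26, adjusted p = 0.957), and the exact two-sided permutation p was 0.0571, the smallest that 35 splits of 7 libraries can give. In TPM the genotypes of Jun did overlap, with 39.6, 38.4, 40.5 and 40.8 TPM in KO/+ and 37.2, 39.4 and 37.7 TPM in WT. The antisense gene Junos, which overlaps Jun on 689 bases, had 1 to 5 counts per library.

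Junb, at chr8:84974484-84978718, encodes an AP-1 subunit that often opposes JUN. It had 8.74, 8.52, 7.69 and 6.02 CPM in KO/+, against 5.88, 5.96 and 8.72 CPM in WT libraries. WT replicate 3 and KO/+ replicates 1 and 2 were close to each other at the top, and KO/+ replicate 4 lay with the lower WT libraries. The log2 fold change of Junb came to 0.18 (SE 0.20, 95% interval -0.27 to 0.62, adjusted p = 0.957), with 0.069 without WT replicate 1, 0.076 without WT replicate 2, 0.11 without KO/+ replicate 1 and 0.39 without WT replicate 3. Junb shares 351 bases with Prdx2 on the other strand, a gene of 9036 to 12459 counts per library, in a transcript (Junb-202) that received 0 counts; the library kit was directional, and the strand setting of the counting is not given in the sources used here.

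Egr1 and Arc shared a single high library. Egr1, on chromosome 18, encodes a zinc finger transcription factor that follows synaptic activity. It had 14.7, 12.5, 11.2 and 12.8 CPM in KO/+, against 10.5, 10.8 and 22.4 CPM in WT libraries. WT replicate 3 was above all others, and WT replicates 1 and 2 were below all KO/+ libraries. The log2 fold change of Egr1 came to -0.19 (SE 0.27, 95% interval -0.80 to 0.42, adjusted p = 0.957) with all libraries and 0.27 without WT replicate 3. Arc, at chr15:74669083-74672570, encodes a cytoskeletal protein of dendrites that promotes the removal of AMPA receptors from synapses. It had 6.14, 7.25, 6.86 and 5.24 CPM in KO/+, against 6.93, 6.99 and 13.2 CPM in WT libraries. WT replicate 3 again stood alone, and the other 6 libraries lay between 5.24 and 7.25 CPM. The log2 fold change of Arc was -0.50 (SE 0.25, 95% interval -1.07 to 0.066, adjusted p = 0.957) and -0.13 without that library. Its unadjusted p of 0.0759 was the smallest of the members.

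Npas4, at chr19:4984355-4990316, a transcription factor gene that responds selectively to calcium entry in neurons, had 0.666, 0.334, 0.648 and 0.812 CPM in KO/+, against 0.499, 0.867 and 0.771 CPM in WT libraries. These values rest on 13 to 33 counts per library, the genotypes overlapped, and its log2 fold change came to -0.22 (SE 0.34, 95% interval -1.01 to 0.56, adjusted p = 0.957). It ran from -0.43 (without WT replicate 1) to -0.01 (without KO/+ replicate 2) when a library was left out. Nr4a1, at chr15:101254269-101274795, encodes an orphan nuclear receptor. It had 11.5, 7.98, 11.7 and 9.44 CPM in KO/+, against 8.35, 10.3 and 7.99 CPM in WT libraries. KO/+ replicates 1 and 3 were highest and KO/+ replicate 2 lowest, and its log2 fold change came to 0.19 (SE 0.17, 95% interval -0.19 to 0.58, adjusted p = 0.957), and 0.11 (without KO/+ replicate 3) to 0.30 (without WT replicate 2) when a library was left out.

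Ier2 and Btg2 were low in WT replicate 3, the library highest in Egr1 and Arc. Ier2, at chr8:84661331-84662852, encodes a small nuclear protein. It had 21.7, 18.5, 21.4 and 22.9 CPM in KO/+, against 22.2, 20.1 and 15.9 CPM in WT libraries. Btg2, at chr1:134075170-134079120, encodes an antiproliferative protein known in the cerebellum for the exit of granule neuron progenitors from the cell cycle. It had 19.6, 15.7, 20.5 and 22.7 CPM in KO/+, against 22.8, 21.3 and 16.7 CPM in WT libraries. WT replicate 3 and KO/+ replicate 2 were the lowest libraries of both genes. The log2 fold change was 0.12 for Ier2 (SE 0.13, 95% interval -0.18 to 0.42, adjusted p = 0.957) and -0.05 for Btg2 (SE 0.15, 95% interval -0.39 to 0.30, adjusted p = 0.973), and without WT replicate 3 it was -0.0032 for Ier2 and -0.17 for Btg2. Both libraries were also low in Mki67, the proliferation marker chosen here after its values were seen, which had 63.5, 61.4, 152 and 180 CPM in KO/+ and 194, 209 and 63.6 CPM in WT libraries. KO/+ replicate 1 also had a low Mki67 level. Its Btg2 level, 19.6 CPM, was the next lowest after KO/+ replicate 2 and WT replicate 3. Its Ier2 level, 21.7 CPM, was not low. The part of cycling progenitors in the levels of Btg2 and Ier2 was not tested.

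**Figure D2:**
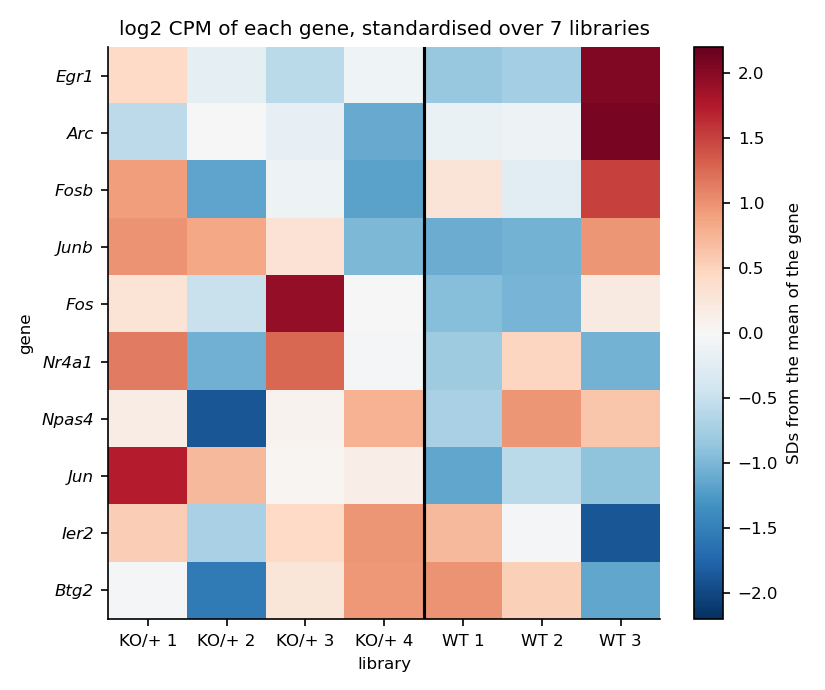
Log2 CPM of each member (rows) standardised over the 7 libraries (columns, KO/+ left of the line, WT right of it); colour gives SDs from the mean of the gene. WT replicate 3 is about 2 SDs above the mean for Egr1 (2.03) and Arc (2.09) and 1.89 SDs below it for Ier2 (-1.89), and KO/+ replicate 3 is 1.93 SDs above it for Fos.

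The members did not rise and fall together as a block. Over the 45 pairs of members, Pearson's r of log2 CPM across 7 libraries was positive in 29 (64.4%) and negative in 16, with a median of 0.084 and a range of -0.92 to 0.83. The median was 0.19 on log2(TPM + 1), 0.22 when values were centred on genotype, and 0.046 (without KO/+ replicate 2) to 0.18 (without WT replicate 3) when a library was left out. For all pairs of the 14474 genes that averaged 1 CPM or more, 49.9% were positive and the median was -0.001. An r of at least 0.8 in size was reached by 3 member pairs (6.67%), against 13.5% of all gene pairs. In exact two-sided permutation tests of r, 0 of the 45 pairs had an adjusted p under 0.05 and 3 had an unadjusted p under 0.05. When the 2 libraries farthest from the median of one gene of the pair were left out, 29 of 45 pairs kept their sign.

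The 3 pairs with an unadjusted p under 0.05 all included Ier2 or Btg2. Arc and Ier2 ran in opposite directions (r = -0.92, rho = -0.89, exact permutation p = 0.00159 and 0.0123, adjusted p = 0.0714 and 0.512), and r was -0.61 without WT replicate 3 and KO/+ replicate 4. Ier2 and Btg2 ran together (r = 0.83, rho = 0.79, exact permutation p = 0.0234 and 0.0480, adjusted p = 0.351 and 0.540), with r = 0.44 without WT replicate 3 and KO/+ replicate 2. Junb and Btg2 ran in opposite directions (r = -0.83, rho = -0.82, exact permutation p = 0.0224 and 0.0341, adjusted p = 0.351 and 0.512), with r = -0.78 without WT replicates 1 and 2. Egr1 and Arc, both at their highest in WT replicate 3, had an r of 0.74 but a rho of 0.036 (exact permutation p = 0.118 and 0.963, adjusted p = 0.649 and 1.0), and r was -0.49 without WT replicates 3 and 1, so the positive value rests on those libraries. Fos followed no other member closely. Its highest r was 0.56, with Nr4a1 (rho = 0.46, exact permutation p = 0.189 and 0.302, adjusted p = 0.649 for r), and r was 0.55 without KO/+ replicate 3 and WT replicate 2. Its r with Arc was 0.021 and with Egr1 0.17.

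**Figure D3:**
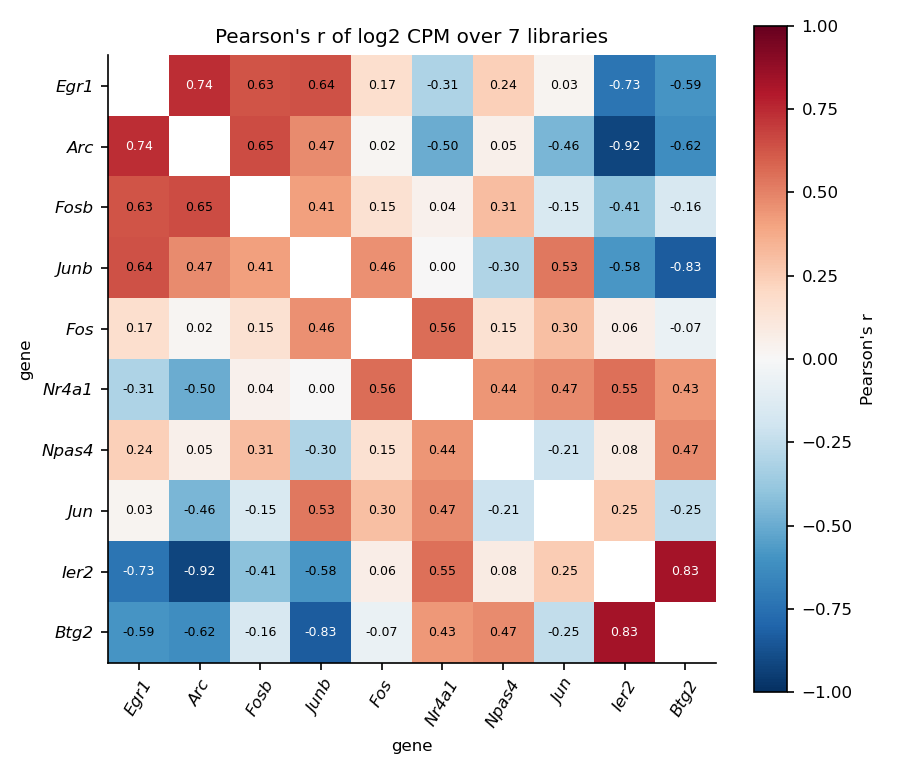
Pearson's r of log2 CPM over 7 libraries for each pair of members (rows and columns), in numbers and colour. Egr1, Arc, Fosb and Junb are positive with each other (0.41 to 0.74) and negative with Ier2 and Btg2, while Fos and Nr4a1 share 0.56 and Nr4a1 and Arc -0.50.

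WT replicate 3 was the highest library for 3 of 10 members (Egr1, Arc and Fosb) and the lowest for 1 (Ier2). It was the highest library of 23.1% of all genes tested and the lowest of 23.3%, more than any other library, so 3 of 10 is near that background. KO/+ replicate 3 was the highest for 2 members (Fos and Nr4a1), against 8.98% of all genes tested. KO/+ replicate 1 was also the highest for 2, against 18.1%. WT replicate 1 and KO/+ replicate 2 were each the lowest for 3, against 10.6% and 13.3%. Counts this small over 10 members are not a result about them. For Nr4a1 the margin over KO/+ replicate 1 was small (11.7 against 11.5 CPM). Markers of other tissue differed in the same libraries. The 5 brainstem markers summed to 4.31 to 6.37 TPM in KO/+ libraries, against 5.41, 5.43 and 11.0 TPM in WT replicates 1 to 3. Of these markers, 3 were under 1 TPM everywhere, Hoxb3 and Hoxb5 among them, and only 2 passed the filter. In CPM, 3 of the 5 were highest in WT replicate 3 and 2 in KO/+ replicate 4. The 5 oligodendrocyte markers summed to 5480 to 10600 TPM in KO/+, against 7470, 6950 and 12300 TPM in WT replicates 1 to 3. In CPM, 4 of these 5 were highest in WT replicate 3 and 1 in WT replicate 1. The sums of both lists were highest in WT replicate 3. In KO/+ replicate 3 the 5 markers of endothelium and pericytes summed to 266 TPM, against 168 to 200 TPM in the other KO/+ libraries and 174 to 198 TPM in WT, with 3 of the 5 at their highest. The part of these tissues in the levels of Egr1, Arc, Fos and Nr4a1 was not tested.

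By the mean of the standardised log2 CPM of the 10 members, KO/+ replicate 1 was highest (0.56) and KO/+ replicate 2 lowest (-0.55), with KO/+ replicates 3 and 4 at 0.34 and -0.053 and WT replicates 1 to 3 at -0.37, -0.18 and 0.25. Among 14466 other genes averaging 1 CPM or more, the profiles most like this mean over 7 libraries included those of D830050J10Rik and Arl15 (r = 0.97 each), Nucb2 (0.96), Nln (0.94), Ss18l1 (0.92), Clptm1l (0.91), March5 and Cradd (0.90 each) and Angptl6 (0.88). They were picked from the top of 14466 values of r, each over 7 libraries, and were not tested. Best matches of single members were as high, such as Ralyl with Egr1 (0.98) and Cdk5r1 with Btg2 (0.99). A link of these genes to the members cannot be read from such values.

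Related gene lists gave no calls either. Of 45 other immediate early genes, 43 were tested, 0 had an adjusted p under 0.05 (edgeR) and 2 had an unadjusted p under 0.05, against 3.15% of all genes tested. Log2 fold changes were above 0 for 26 and below 0 for 17, with a median of 0.066. Gadd45b, a stress and activity gene that acts in DNA demethylation, had 13.0, 11.9, 11.0 and 10.9 CPM in KO/+, against 9.58, 9.04 and 9.89 CPM in WT libraries (log2 fold change 0.30, adjusted p = 0.957). Homer1, whose short form is an activity-induced scaffold of synapses, had 54.9, 52.7, 55.3 and 47.2 CPM in KO/+, against 43.2, 46.9 and 45.9 CPM in WT libraries (log2 fold change 0.21, adjusted p = 0.957). These Homer1 values are for all transcripts of the gene together and do not single out the short form. Homer1-204, the coding transcript that ends earliest in the gene, made up a mean of 7.41% in KO/+ and 7.76% in WT libraries. Its percentages overlapped between the genotypes, and its log2 fold change was 0.17 (SE 0.18). The genotypes of both genes did not overlap, as was so for 3.96% of all genes tested. Crem (0.29) and Maff (0.33), which encode leucine zipper factors, and the kinase gene Plk3 (-0.22) followed by unadjusted p, each with overlapping genotypes and an adjusted p of 0.957.

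Some close relatives of the members, chosen after their values were seen, were highest in one of the same libraries and others were not. Egr3, a relative of Egr1, had 0.203, 0.232, 0.177 and 0.135 CPM in KO/+, against 0.263, 0.406 and 2.38 CPM in WT libraries, and it did not pass the filter. Its counts were 7, 9, 6 and 4 in KO/+, against 10, 15 and 102 in WT libraries. Every KO/+ library was thus below every WT library, but by a margin as small as 9 against 10 counts. Of all genes tested, 1.8% had KO/+ below in this way, so this is not a result about Egr3. Egr2 did not share the high WT replicate 3, with 0.232, 0.309, 0.707 and 0.879 CPM in KO/+ and 1.16, 1.08 and 0.327 CPM in WT libraries. Egr4 was lowest in WT replicate 3, with 10.0, 6.33, 7.13 and 7.88 CPM in KO/+ and 6.62, 7.50 and 5.77 CPM in WT libraries. Of the AP-1 relatives, Fosl2 was lowest in WT replicate 3 (11.9 CPM) and Jund highest in KO/+ replicate 1 (226 CPM). Nr4a3, a relative of Nr4a1, had 7.13 CPM in KO/+ replicate 3, against 3.30, 3.40 and 3.59 CPM in the other KO/+ libraries and 2.99, 3.25 and 3.72 CPM in WT. Nr4a2 was highest in the same library, at 14.8 CPM, against 10.5 to 11.7 CPM in the other KO/+ libraries and 9.09 to 11.5 CPM in WT.

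Of 12 delayed activity genes, which encode secreted peptides and synaptic proteins made after the immediate early factors, 12 were tested and 0 had an adjusted p under 0.05 (edgeR). An unadjusted p under 0.05 was found for 1, against 3.15% of all genes tested. Of the log2 fold changes, 5 were above 0 and 7 below, with a median of -0.12. WT replicate 3 was the highest library for 7 of the 12, against 23.1% of all genes tested. Tac1, the gene of substance P, had 0.206 to 0.746 CPM in KO/+, against 0.394, 0.406 and 8.11 CPM in WT replicates 1 to 3 (log2 fold change -2.79, adjusted p = 0.957). Vgf, a neuropeptide precursor gene, had 23.0 to 29.0 CPM in KO/+, against 26.5, 26.0 and 65.4 CPM in WT replicates 1 to 3 (log2 fold change -0.61, adjusted p = 0.957). Nptx2, which encodes a pentraxin that clusters AMPA receptors, had 7.10 to 9.57 CPM in KO/+, against 8.43, 8.61 and 13.1 CPM in WT replicates 1 to 3 (log2 fold change -0.32). These 3 genes stood apart in a single WT library. Syt4 (0.19) and Ptgs2 (0.56) had overlapping genotypes and an adjusted p of 0.957.

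Of 29 upstream regulators, the kinases, channels and transcription factors that link calcium entry to these genes, 29 were tested, 0 were called and 1 had an unadjusted p under 0.05, a share near the 3.15% of all genes tested; 11 log2 fold changes were above 0 and 18 below, with a median of -0.035. That gene was Atf1, a relative of CREB, with 20.8, 17.9, 20.5 and 18.2 CPM in KO/+, against 16.9, 17.2 and 14.7 CPM in WT libraries (log2 fold change 0.25, adjusted p = 0.957). Mef2c (-0.33), Mrtfb (-0.49), Ep300 (-0.29) and the NMDA receptor gene Grin1 (-0.29) had overlapping genotypes. Of 18 stress genes, 18 were tested, 0 were called and 0 had an unadjusted p under 0.05; 12 were above 0 and 6 below, with a median of 0.056 and a range of -0.15 to 0.25. Those with the smallest unadjusted p were Vegfa (0.19), Hsp90aa1 (0.16), Hsph1 (-0.14), Hspa5 (-0.15) and Fkbp5 (-0.15), each with overlapping genotypes.

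**Figure D4:**
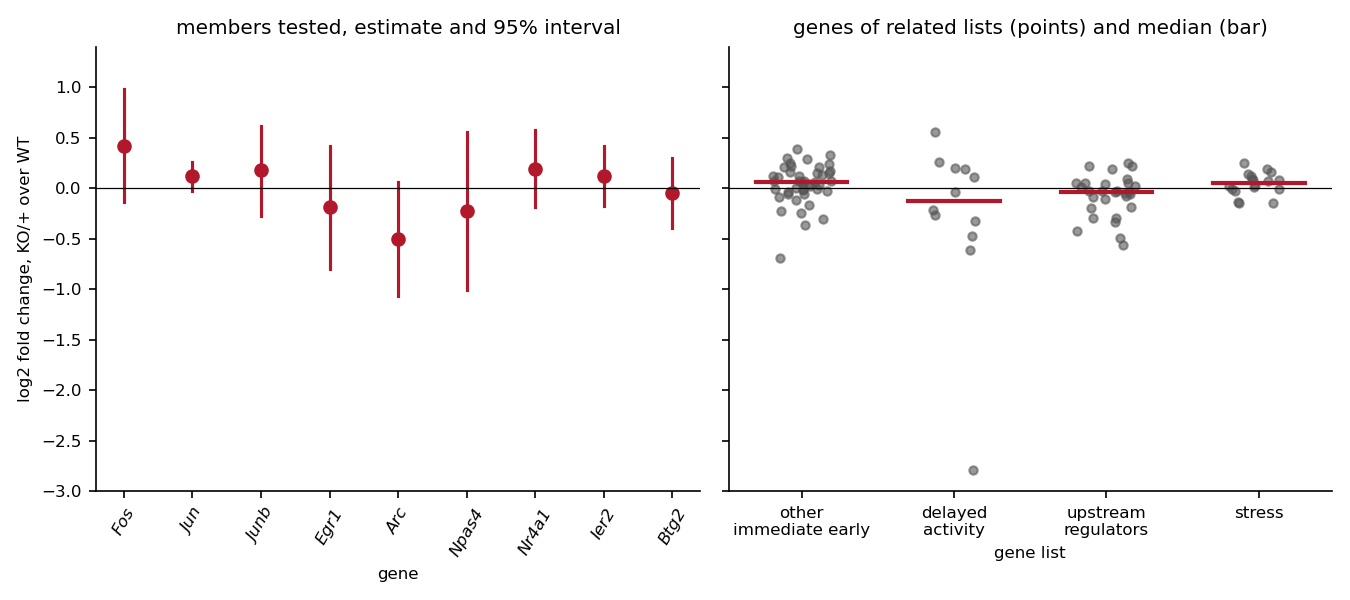
Left, log2 fold change (KO/+ over WT) of the 9 members tested, with 95% intervals; right, the same quantity for each tested gene of the 4 related lists (points, spread sideways at random) with the list median (bar). Every interval of the members spans 0, and the list medians lie between -0.12 and 0.066, with Tac1 as the single point at -2.79.

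At the level of transcripts, 14 transcripts of the members were tested, and 0 of 14 and 0 of 44375 transcripts (0.0%) had an adjusted p under 0.05. Unadjusted, the counts were 0 of 14 and 1201 of 44375 (2.71%). The unadjusted count of member transcripts was 1 with the replicate number as a block (Npas4-201), without WT replicate 1 (Arc-201) and without WT replicate 3 (Nr4a1-202). Without KO/+ replicate 4 it was 2 (Nr4a1-202 and Npas4-201). In each of these fits 0 were called. Jun, Ier2 and Btg2 have a single annotated transcript each, and all counts of Junb were assigned to Junb-201. For Nr4a1 the counts were split between Nr4a1-201, which starts at the RefSeq start shown above, and Nr4a1-202, which starts upstream at position 101254269. Nr4a1-202 made up 51.2%, 46.5%, 24.8% and 24.4% of the transcripts of the gene in KO/+, against 25.1%, 17.1% and 37.5% in WT libraries. The genotypes overlapped in this share (log2 fold change of the transcript 0.69, SE 0.35, adjusted p = 1.0). It was largest in KO/+ replicates 1 and 2 and then in WT replicate 3, which are the libraries low in progenitor markers. The part of progenitors in the share of Nr4a1-202 was not tested. The coding transcript Fos-201 made up 57.3% to 73.2% in KO/+ and 59.3% to 74.2% in WT libraries, the rest being 2 transcripts annotated as processed.

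Of 11 member transcripts with a mean of at least 10 counts in genes with several transcripts, 1 did not overlap between the genotypes in isoform percentage, Npas4-201, against 4.47% of 40509 such transcripts. With so few transcripts, 1 of 11 is not a result about the members. Npas4-201, the coding transcript, made up 26.6%, 12.8%, 43.4% and 88.6% in KO/+, against 100%, 100% and 95.3% in WT libraries. Npas4-203, annotated as a target of nonsense-mediated decay, made up 52.1%, 87.2%, 42.2% and 11.4% in KO/+, against 0%, 0% and 4.72% in WT. For each, every KO/+ library was on one side of every WT library (exact two-sided permutation p = 0.0571, the smallest possible). Both are shares of the same 100%, so they are not separate results. The retained intron transcript Npas4-202 took 21.3% in KO/+ replicate 1, 14.4% in KO/+ replicate 3 and 0% in every other library. The percentages rest on 13 to 33 counts per library for the whole gene: Npas4-203 had 9, 11, 7 and 2 counts in KO/+ and 0, 0 and 1 in WT, assigned by the authors' program among transcripts that share most of their sequence. Npas4-203 is below the minimum of 10 counts and so outside that comparison, as is Fosb-204, whose percentages, on 0 to 3 counts per library, did not overlap either (7.51%, 0%, 0% and 0% in KO/+, against 30.2%, 14.9% and 9.36% in WT). The test of Npas4-201 counts gave a log2 fold change of -1.12 (SE 0.69, adjusted p = 1.0).

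**Figure D5:**
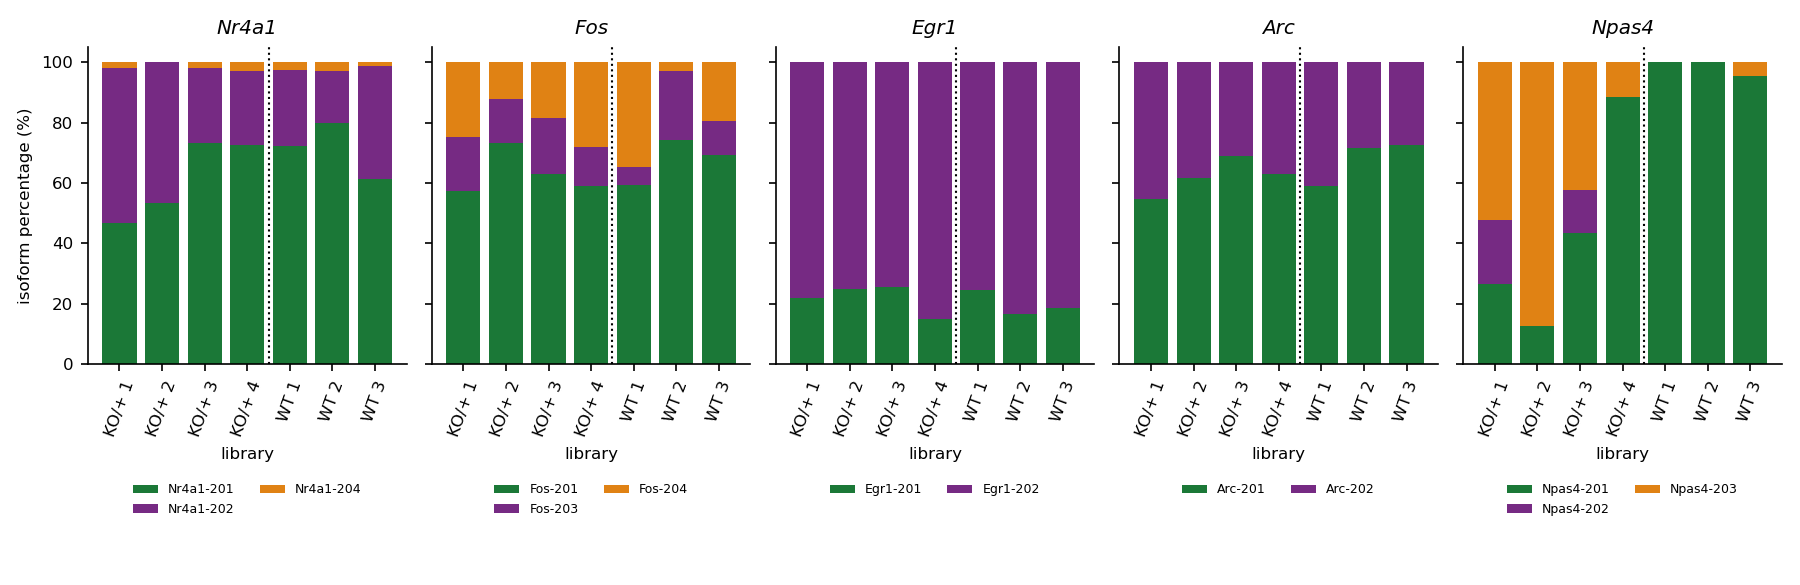
Isoform percentage (vertical axis) of each transcript with counts, for 5 members, in KO/+ libraries (left of the dotted line) and WT libraries (right). Nr4a1-202 takes the largest shares in KO/+ replicates 1 and 2 (51.2% and 46.5%), Egr1-202 makes up 74.5% to 84.9% in every library, and Npas4-201 makes up 12.8% to 88.6% in KO/+ and 95.3% to 100% in WT libraries.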

How the data were processed

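The tools named in the submitters' processing notes are RSEM 1.3.1, STAR 2.5.2a, Trimmomatic 0.39 and bcl2fastq, with GRCm38 and mm10 as builds. In the deposited files, expected counts (genes and transcripts) are RSEM's estimated reads, TPM is a level scaled by length and depth, and the isoform percentage gives the percent of a gene's output from each transcript, per the file headers. For strand and aligner settings, the sources used here state nothing.

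Expected counts were rounded to whole numbers, passed through filterByExpr, and scaled with TMM (factors 0.9783 to 1.022). The test of KO/+ against WT was edgeR 4.0.16 quasi-likelihood (glmQLFit, glmQLFTest, robust, no covariate; common biological coefficient of variation 18.7%), with Benjamini-Hochberg adjustment over all 16813 genes or 44375 transcripts and a threshold of 0.05. Log2 CPM for correlations used a prior count of 2. Correlations were tested over all 5040 orders of 7 libraries, adjusted over 45 pairs. Single values were compared over 35 splits with SciPy 1.17.1. Precision is limited by 3 and 4 libraries. No libraries agreed within sampling noise. All 55450 gene IDs were found in GENCODE M21 (GRCm38). Alternatives were DESeq2 1.42.0, limma 3.58.1 (voom, or trend on log2(TPM + 1) and log2(TPM + 0.1)), RLE or no scaling factors, other filters, the replicate block and leaving out each library. The tests were checked on simulated data. The tables of the whole series were not used here.

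The members and lists were chosen with earlier results of these data known. The rule for named genes took all members, L3mbtl3, up to 5 genes per related list with the smallest unadjusted p, and the 10 genes most like the mean of the members, of which 1 is not reported here.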

Additional observations from a re-analysis of the deposited data

Results flagged for a closer look

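Of 64 genes checked for a library far from the others of its genotype, 1 was found. Nr4a3, which encodes an orphan nuclear receptor related to Nr4a1, had 7.13 CPM in KO/+ replicate 3, while the other KO/+ libraries lay between 3.30 and 3.59 CPM, so that the gap took up 0.925 of the range of the group, above Dixon's critical value for 4 libraries. Chance gives such a gap in about 5% of groups. Groups of 3, and so the WT libraries, were not examined in this way. KO/+ replicate 3 was also the highest library of Fos and, by a small margin over KO/+ replicate 1 (11.7 against 11.5 CPM), of Nr4a1.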

How the results depend on the processing

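At the adjusted threshold, no member passed the threshold under any of the 9 alternatives or 7 fits without a library. The number of genes called was 0 with all libraries and 0 to 1 without a library (Wdfy1 without WT replicate 2, Fam220a without WT replicate 3, Eif3j2 without KO/+ replicate 4). With the replicate number as a block it was 1 (Eif3j2), with 1029 genes at an unadjusted p under 0.05, against 530 without it. Same-numbered libraries deviated with r of 0.0863, -0.17 and -0.0217, and no WT library deviated most like the KO/+ library of its own number. These values cannot show whether same-numbered libraries share a litter or a day, which the labels do not give. The number of genes at an unadjusted p under 0.05 ran from 180 to 1562 without a library. The ends were without KO/+ replicate 1 or 2 and without KO/+ replicate 4. DESeq2 gave 0 calls and 597 such genes. At an unadjusted p under 0.05 the members numbered 1 with the block (Fos) and 1 without WT replicate 1 or 2 (Arc), with edgeR adjusted p of 0.733, 0.999 and 1.0. The direction of each member's fold change was kept in all of the 9 alternatives (6 for Npas4, which did not pass the stricter filters). Without a library, directions turned for Egr1 (-0.38 to 0.27), Ier2 (-0.0032 to 0.22) and Btg2 (-0.17 to 0.047), the reversals being without WT replicate 3 for Egr1 and Ier2 and without WT replicate 1 or KO/+ replicate 2 for Btg2. The median log2 fold change of the members was 0.069 to 0.12 without a library. Positive pairs numbered 27 of 45 on log2(TPM + 1) or centred on genotype, and 26 to 29 without a library. Counts limit Fosb and Npas4, whose counting error is 32.6% and 20.5% at their mean count.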

Other observations

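Outside the members, other neuronal genes stood apart in WT replicate 3, the library highest in Egr1 and Arc; they were chosen after their values were seen. Tph2, which encodes the serotonin-synthesising enzyme of the raphe nuclei in the brainstem, had 1.27, 1.05, 1.18 and 0.913 CPM in KO/+, against 0.998, 1.03 and 6.17 CPM in WT libraries. Camk2a, the gene of a calcium-dependent kinase abundant in synapses, had 72.8, 98.4, 70.2 and 58.3 CPM in KO/+, against 57.5, 63.1 and 179 CPM in WT libraries. Rgs4, a regulator of G-protein signalling, had 13.0 to 19.6 CPM in KO/+, against 12.7, 12.5 and 40.5 CPM in WT replicates 1 to 3. The neurotrophin gene Bdnf did not set WT replicate 3 apart, with 9.0, 8.26, 4.86 and 4.09 CPM in KO/+ and 3.73, 3.68 and 8.95 CPM in WT libraries. Its 3 highest libraries were those with the lowest progenitor markers. The part of progenitors in the level of Bdnf was not tested.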
